A study of Mus musculus with 15 samples.

Results

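The transcription factors examined here were Pax2, Pax6, Otx2, Lhx2, Vax2, Sox9, Six3, Tbx2, Tbx5 and Foxc1, 10 genes chosen by name from the factors that set up the eye field, the optic cup and the retinal pigment epithelium (RPE). All 10 were listed among the 25038 genes measured in mouse RPE/choroid. In cultured mouse RPE cells (mRPE), 7 of the 10 were listed among 20910 genes, and Otx2, Six3 and Tbx5 were not listed. The study asked what is lost from RPE without Prom1, a pentaspan membrane glycoprotein of photoreceptors and RPE, and sequenced polyadenylated RNA from cultured cells and from dissected tissue.

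The mRPE cells came from C57/BL6J mice, were immortalised with a lentivirus carrying the HPV E6 and E7 genes and were selected in puromycin. Prom1-KO mRPE cells had then received lentiviral Cas9, a further puromycin selection and a guide RNA to Prom1 exon 5, and each is 1 clone, KO22 (3 libraries) or KO26 (2 libraries). The paper also describes Cas9 cells given a scrambled guide, and whether the WT libraries came from such cells was not stated in the sources used here. WT mRPE cells gave 4 libraries. Libraries of the series 8995 (1 each of WT, KO22 and KO26) and 9262 (3 WT, 2 KO22 and 1 KO26) were compared with the series as a term. RPE/choroid came from WT mice (3 libraries) and from Prom1 fl/fl mice crossed to RPE65-Cre and given tamoxifen by gavage (3 libraries, here called labelled Prom1-KO), so that Cre was driven by an RPE promoter while the dissected tissue also held choroid. Ages and the number of mice behind each library were not given in the labels used here. Nothing in the labels states that libraries of a group came from separate cultures or animals, so the p-values measure the spread between these libraries, which may be technical.

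In the early eye, Pax6, Six3 and Lhx2 mark the eye field and the optic vesicle that grows from it, and Otx2 is required, with the pigment-cell factor Mitf, for the outer layer of the optic cup to become RPE. The cup is then divided along its dorsal to ventral axis: Tbx2 and Tbx5 act dorsally under BMP4, while Vax2 and Pax2 act ventrally and in the optic stalk. Sox9 works with OTX2 on visual cycle genes in mature RPE and is also a master regulator of cartilage matrix genes, and Foxc1 belongs to the periocular mesenchyme that forms the front of the eye and its drainage tissue.

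In the GENCODE vM39 annotation of GRCm39, Pax2 lies at chr19:44735057-44826703, Vax2 at chr6:83688215-83715295, Tbx2 at chr11:85723377-85734115, Tbx5 at chr5:119970733-120023284, Pax6 at chr2:105499234-105530952, Lhx2 at chr2:38229293-38259759, Six3 at chr17:85920640-85936730, Sox9 at chr11:112673009-112678586 and Foxc1 at chr13:31990616-31996459 on the plus strand and Otx2 at chr14:48894099-48911276 on the minus strand. The study's methods name the GeneCounts mode of STAR as the source of the counts, a mode that counts reads over annotated exons.

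Promoter windows of the RefSeq annotation (GRCm38.p6) were available for 6 of the 10 genes, with 13 transcription starts among them. The 250 bases before a start were searched on both strands for ACAAAG (the core of SOX factor sites), TAATTA (homeodomains of the LHX and VAX type), TAATCC (OTX type), AGGTGT (T-box), GTAAACA (forkhead) and CATGTG (an E-box used by MITF). Pax2, the factor with the strongest decrease in the cultured cells, is shown with its first and its second start, each of which holds ACAAAG. Whether Sox9 acts on Pax2 was not tested. Lhx2 is shown for its opposite values in the 2 clones, and Otx2 as the RPE factor that carries homeodomain letters in its own window. None of the 4 windows shares a run of 20 bases with an annotated transcript of its own gene. Capitals mark the searched letters on either strand, and all sequences run 5′ to 3′ on the strand of the gene.
Pax2, first start, chr19:44746351-44746600, plus strand: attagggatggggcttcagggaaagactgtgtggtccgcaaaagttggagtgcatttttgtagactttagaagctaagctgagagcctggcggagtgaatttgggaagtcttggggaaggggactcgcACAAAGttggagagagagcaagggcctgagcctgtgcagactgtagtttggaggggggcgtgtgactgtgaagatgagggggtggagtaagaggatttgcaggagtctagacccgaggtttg
Pax2, second start, chr19:44755502-44755751, plus strand: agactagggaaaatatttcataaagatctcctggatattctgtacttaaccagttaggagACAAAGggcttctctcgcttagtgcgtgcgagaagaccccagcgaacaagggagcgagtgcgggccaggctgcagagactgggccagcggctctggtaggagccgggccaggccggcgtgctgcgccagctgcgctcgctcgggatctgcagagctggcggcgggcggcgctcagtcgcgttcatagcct
Lhx2, first start, chr2:38339031-38339280, plus strand: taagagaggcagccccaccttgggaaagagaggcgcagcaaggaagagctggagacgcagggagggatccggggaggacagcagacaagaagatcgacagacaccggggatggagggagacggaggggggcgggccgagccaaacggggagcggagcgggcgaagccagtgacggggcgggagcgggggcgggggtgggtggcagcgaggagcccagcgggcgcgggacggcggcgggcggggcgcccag
Otx2, first start, chr14:48667645-48667894, minus strand: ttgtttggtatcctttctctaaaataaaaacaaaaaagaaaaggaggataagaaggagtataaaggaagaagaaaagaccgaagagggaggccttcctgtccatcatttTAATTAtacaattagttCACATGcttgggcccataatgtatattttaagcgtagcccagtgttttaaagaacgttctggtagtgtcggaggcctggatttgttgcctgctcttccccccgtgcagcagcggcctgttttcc
ACAAAG stood in 3 of the 13 windows and in 16.5% of all 32851 windows of the same length. TAATTA stood in 2 of the 13, both of Otx2, and in 4.84% of all windows, and TAATCC stood in 1, also of Otx2, and in 6.25%. CATGTG was found in 1 Otx2 window, read as CACATG above, and in 12.3% of all, while AGGTGT and GTAAACA were in none of the 13 and in 11.8% and 3.17% of all. The first Lhx2 window held none of the 6 motifs and had 72.8% G and C. These are matches of letters and not measured sites.

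Total counts per library were 8076188 to 27537863 in mRPE and 48154444 to 61766179 in RPE/choroid. Values are given as CPM, a count scaled per library on the TMM scale (edgeR's CPM), which divides by a library size corrected for composition. A gene was called changed at an adjusted p under 0.05 together with an absolute log2 fold change over 1.2, by edgeR's quasi-likelihood test with Benjamini-Hochberg adjustment over all genes tested. Prom1 itself was not listed in the mRPE table. In RPE/choroid it measured 48.7, 49.6 and 53.3 CPM in WT and 49.9, 48.1 and 35.5 CPM in the libraries labelled Prom1-KO, a log2 fold change of -0.18 (SE 0.16, adjusted p = 0.824), and Prom1 is also expressed by cells outside the RPE, so this value does not check the labels. The defining RPE markers were also checked. Of 10 RPE markers, 2 were listed in the mRPE table (Best1 and Rdh5, summing to 6.79 to 8.54 CPM in WT), and Rpe65, Rlbp1, Rgr, Lrat, Ttr, Tyrp1, Krt8 and Krt18 were not listed, while 7 listed fibroblast markers summed to 12890.4 to 17525.4 CPM. In WT RPE/choroid all 10 RPE markers were listed and summed to 1815 to 2712 CPM. The share of counts on mitochondrial rRNA genes moved with the groups. In RPE/choroid it was 55.3% to 59.6% in WT and 63.2%, 62.9% and 80.4% in labelled Prom1-KO, so that all 3 lay above WT and replicate 3 stood apart, and the factors, the RPE genes and the marker sums in tissue are also given without that replicate. In mRPE it was 15.3% to 19.0% in WT, 11.1% to 13.3% in KO22 and 11.3% to 14.4% in KO26, below WT in both clones. The part of these shares in the results was not tested.

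In WT libraries, the order of the factors differed between cells and tissue. Levels between genes were compared per kb of annotated exon (CPM per kb). Foxc1 was highest in WT mRPE at 8.74 ± 0.95 CPM per kb (SD, n = 4), followed by Sox9 at 3.57 ± 0.33 CPM per kb, and their libraries did not overlap. Vax2 at 1.52 ± 0.46 and Pax2 at 1.01 ± 0.27 CPM per kb came next and overlapped each other. Lhx2 followed at 0.394 ± 0.092 CPM per kb. Tbx2 at 0.112 ± 0.090 and Pax6 at 0.0634 ± 0.030 CPM per kb were lowest and overlapped.

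WT RPE/choroid had Otx2 on top at 7.57 ± 2.29 CPM per kb (SD, n = 3). Foxc1 (6.11 ± 0.85 CPM per kb), Six3 (5.35 ± 1.10), Sox9 (4.20 ± 0.38) and Pax6 (4.11 ± 1.53) followed, and each overlapped its neighbour in the order. Lhx2 (1.14 ± 0.77 CPM per kb) and Tbx2 (1.10 ± 0.20) lay below Pax6 without overlap and overlapped each other. Vax2 (0.222 ± 0.25 CPM per kb) and Tbx5 (0.181 ± 0.21) overlapped, and Pax2 was lowest at 0.0104 ± 0.018 CPM per kb, with 0, 0 and 14 counts in the 3 libraries. Library sizes include mitochondrial rRNA, 55.3% to 59.6% of counts in WT RPE/choroid and 15.3% to 19.0% in WT mRPE. The level of a gene in tissue against that in the cells depends on this share. Set side by side, with no test because the 2 tables were normalised separately, the eye-field factor Pax6 was among the higher genes in tissue. In the cells Pax6 and Tbx2 were lowest, and Pax2 and Vax2, low in tissue, were above Lhx2. The length counts every annotated exon of a gene, 16047 bases for Pax6 against 5137 for Tbx2 and 5409 for Otx2. Without it, mean CPM of Pax6 was above that of Tbx2 in WT mRPE (1.02 against 0.573) and of Otx2 in WT RPE/choroid (65.9 against 40.9). Vax2 and Lhx2 were then close in WT mRPE (2.14 and 2.08 CPM). The order of these genes depends on the length used.

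**Figure D1:**
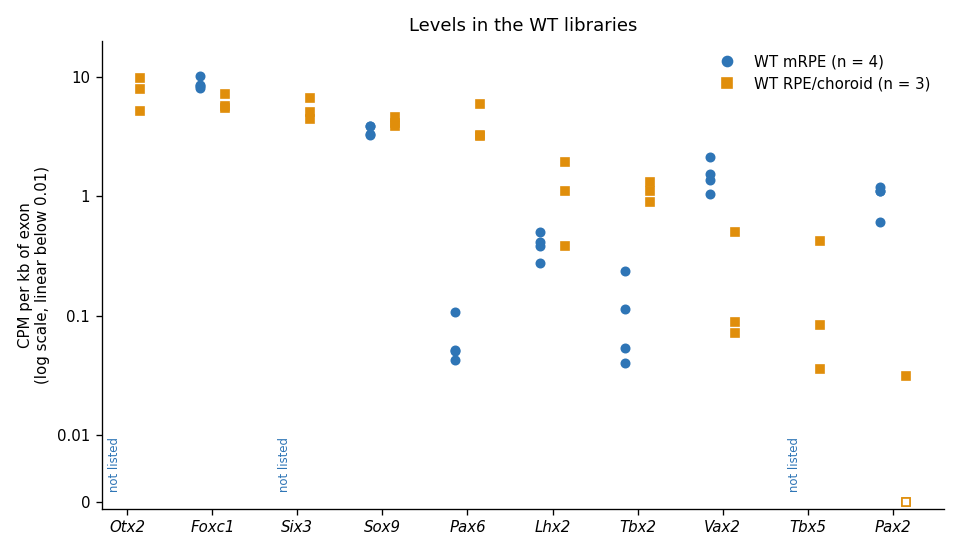
Level of each factor in the WT libraries, as CPM per kb of annotated exon on a log scale that is linear below 0.01, with circles for WT mRPE (n = 4) and squares for WT RPE/choroid (n = 3). Foxc1 measured 8.74 CPM per kb in mRPE and 6.11 in tissue, Pax6 and Tbx2 lie higher in tissue, Pax2 and Vax2 lie higher in the cells, and Otx2, Six3 and Tbx5 were not listed for mRPE. Library sizes include mitochondrial rRNA, whose share was larger in tissue, so circles and squares are not on the same scale.

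In clone KO22, 5 of the 7 listed factors changed against WT. Pax2, Vax2, Tbx2 and Lhx2 fell and Sox9 rose, whereas Pax6 and Foxc1 did not pass both limits. Tbx2 met the count filter through its WT libraries alone, so its call gives no support of its own. Over all 20455 genes tested in the 7 libraries, 13.8% were lower and 11.4% higher in KO22, 25.2% in all, so changes were common in this clone. The median log2 fold change was -1.40 over the 7 factors and -0.03 over all genes. The log2 fold change was negative for 6 of the 7.

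Pax2, a paired-box factor of the optic stalk, measured 3.93, 7.20, 7.27 and 7.82 CPM in WT and 0.173, 1.06 and 0.310 CPM in KO22. Every KO22 library lay below every WT library, which held for 25.3% of all genes tested. The log2 fold change was -3.49 (SE 0.37, adjusted p = 5.70e-05, 95% interval -4.32 to -2.65), and the difference of log2(mean CPM + 0.5) was -2.72 in series 8995 alone and -2.74 in series 9262 alone. Summed over libraries, KO22 held 28 Pax2 counts and WT 387. Gm20395 and 1700039E22Rik, annotated on the opposite strand across Pax2, were at 0.834 to 2.80 and 0.437 to 1.15 CPM in WT and at 0 to 0.337 and 0 CPM in KO22. The strand setting of the counting was not given in the sources used here, so reads of Pax2 and of these antisense genes cannot be told apart.

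Vax2, a homeodomain factor of the ventral retina, measured 3.02, 1.92, 1.47 and 2.15 CPM in WT and 0, 0.530 and 0.388 CPM in KO22. Again the groups did not overlap, and the KO22 library of series 8995, with 0 counts, allows up to 0.259 CPM at 3 counts. The log2 fold change was -2.64 (SE 0.57, adjusted p = 0.00384), with -2.82 and -1.29 within series 8995 and 9262 on log2(mean CPM + 0.5). Vax2os, the antisense gene at this locus, was at 0.0982 to 0.556 CPM in WT and at 0 in all 3 KO22 libraries. Genes of chromosome 19, which holds Pax2, and of chromosome 6, which holds Vax2, had median log2 fold changes of -0.42 and -0.45 in KO22, and the part of these chromosome-wide values in the results on Pax2 and Vax2 was not tested.

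Tbx2, a T-box repressor of the dorsal retina, was near the floor of detection. WT libraries held 7, 3, 6 and 17 Tbx2 counts (0.206 to 1.22 CPM) and KO22 libraries 0, 1 and 2 counts (0 to 0.155 CPM). The KO22 sum of 3 counts against 33 gave 12.8% of the WT level, with a 95% interval of 2.52% to 41.0% that covers counting error only. edgeR's adjusted p was 0.0185, but without KO22 replicate 2 the log2 fold change was -2.52 with an adjusted p of 0.0970, and in 3 of the 7 fits that left out a library Tbx2 did not pass the count filter.

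Lhx2, a LIM homeodomain factor needed for the optic vesicle to form a cup, measured 1.47, 2.19, 2.65 and 2.01 CPM in WT and 0, 1.16 and 1.24 CPM in KO22. All KO22 libraries lay below all WT libraries by a narrow margin. The log2 fold change was -1.40 (SE 0.51, adjusted p = 0.0417), within-series differences of log2(mean CPM + 0.5) were -1.98 and -0.71, and the call was lost in each of the 7 fits that left out a library. Without WT replicate 1 or KO22 replicate 1 the log2 fold change was -0.93 or -0.91 and missed the fold limit at adjusted p = 0.0193 and 0.0203. Without any of the other 5 the adjusted p was 0.0525 to 0.0926.

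Sox9, an HMG-box factor, was the only one of the 7 that rose. It measured 13.7, 16.0, 16.2 and 13.8 CPM in WT and 110.7, 63.5 and 77.6 CPM in KO22, so the lowest KO22 library was above the highest WT library, as for 24.8% of all genes tested. The log2 fold change was 2.45 (SE 0.18, adjusted p = 5.99e-06), with 2.97 in series 8995 and 2.17 in series 9262 on log2(mean CPM + 0.5), and leaving out any library kept it between 2.19 and 2.58.

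Pax6, the paired-box and homeodomain factor of the eye field, was low in these cells, at 0.687 to 1.72 CPM in WT and 0.388 to 0.865 CPM in KO22. The groups overlapped and the log2 fold change was -0.62 with a 95% interval of -1.66 to 0.43 (adjusted p = 0.290). Foxc1, a forkhead factor, measured 59.2, 49.5, 46.9 and 48.7 CPM in WT and 47.6, 36.9 and 43.5 CPM in KO22. Its log2 fold change of -0.28 (SE 0.11, adjusted p = 0.0483) was below the fold limit, and the groups overlapped. A change of more than 0.52 in size on the log2 scale lies outside the 95% interval of Foxc1.

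Sums of marker genes also differed between KO22 and WT. Of 12 marker lists, 9 had sums that did not overlap between KO22 and WT, 8 of them lower in KO22 and 1 higher. Among all single genes tested, 25.3% lay below and 24.8% above WT in every KO22 library, so such separation was common. The 7 listed fibroblast markers summed to 5565 to 8668 CPM in KO22, 4 listed endothelial markers to 152.9 to 236.2 CPM in WT and 3.41 to 4.77 CPM in KO22, and 7 listed Müller glia and astrocyte markers, a list that holds Pax2 itself and not Sox9, to 362.4 to 490.0 CPM in WT and 165.6 to 199.9 CPM in KO22. The 7 pericyte and smooth muscle markers summed to 936.9 to 1959 CPM in WT and 286.3 to 381.6 CPM in KO22, 5 listed ciliary body and iris epithelium markers to 391.1 to 423.9 and 166.6 to 220.3 CPM, and 5 listed amacrine, horizontal and ganglion cell markers to 89.0 to 115.1 and 43.8 to 54.7 CPM. Melanocyte and skeletal muscle markers, with 2 genes listed each, were at most 2.80 and 8.77 CPM in WT and also lower in KO22, and the 2 listed immune markers were higher, at 10.2 to 13.8 against 7.61 to 9.33 CPM. Within some lists, single markers were called in both directions in KO22. Of the amacrine, horizontal and ganglion cell markers, Gad1 and Slc6a9 rose and Tfap2b and Lhx1 fell. Tfap2b alone was at 84.0 ± 12.7 CPM in WT and 12.7 ± 5.5 CPM in KO22. Of the endothelial markers Plvap rose and Kdr and Tek fell. Of the pericyte markers Cspg4 and Kcnj8 rose and Rgs5, Pdgfrb and Acta2 fell. Calls of Lhx1, Plvap and Kcnj8 were lost in at least 1 fit that left out a library. The defining glial markers Aqp4 and Gfap and the endothelial markers Cdh5, Emcn, Tie1 and Erg were not listed. The part of these marker differences in the results on the factors was not tested.

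**Figure D2:**
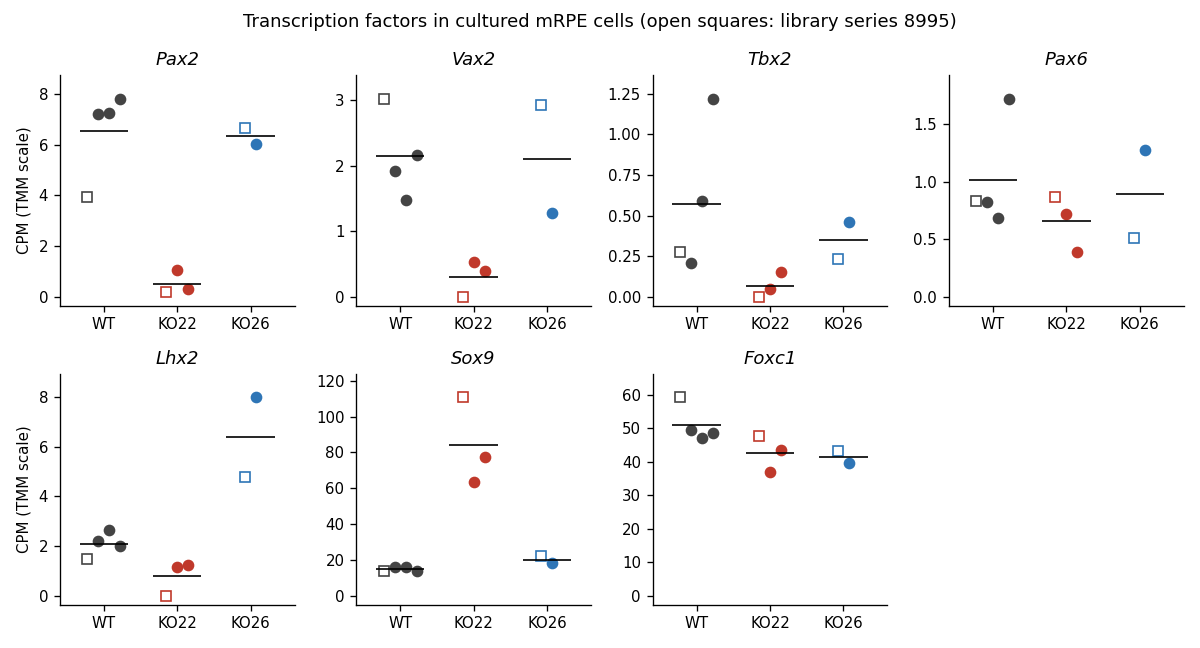
CPM of the 7 listed factors in each mRPE library, by group, with open squares for series 8995, filled circles for series 9262 and a line at the group mean. Pax2 lies at or below 1.06 CPM in KO22 and at or above 3.93 CPM in WT and KO26, Sox9 lies at or above 63.5 CPM in KO22 and at or below 21.9 CPM elsewhere, and Lhx2 is highest in both KO26 libraries.

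In clone KO26, none of the 7 factors passed both limits against WT, by edgeR's quasi-likelihood test in 1 fit over the 9 mRPE libraries. The paper removed both KO26 libraries (8995-SB-3 and 9262-SB-6) as outliers of its principal component analysis. It proposes biological heterogeneity or technical anomalies as the reason. Of all 20737 genes tested, 1.21% were higher and 0.719% lower. At an unadjusted p under 0.05, 2 of the 7 and 4163 of all genes differed. DESeq2's test called 1 of the 7, Lhx2, and 360 genes higher and 269 lower over all. Their median log2 fold change was -0.13, against 0.03 over all genes.

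Lhx2 came nearest to a call, at 4.78 and 7.98 CPM in KO26 against 1.47 to 2.65 CPM in WT. Both KO26 libraries lay above all WT libraries, as for 11.9% of all genes, with a log2 fold change of 1.86 (SE 0.45, adjusted p = 0.0521). DESeq2's test gave an adjusted p of 3.09e-04, and edgeR on the WT and KO26 libraries alone 2.50e-04, with a log2 fold change of 1.74. Within series 8995 and 9262 the difference of log2(mean CPM + 0.5) was 1.4 and 1.6.

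Pax2 measured 6.68 and 6.01 CPM in KO26, inside the WT range, and its log2 fold change was 0.23 with a 95% interval of -0.62 to 1.09. Vax2 (2.92 and 1.27 CPM) and Tbx2 (5 and 4 counts) also overlapped WT. Sox9 measured 21.9 and 18.0 CPM, above all 4 WT libraries as were 11.9% of all genes, with a log2 fold change of 0.35 (95% interval -0.10 to 0.80, adjusted p = 0.365). Foxc1, at 43.2 and 39.7 CPM, lay below all WT libraries, as did 12.8% of all genes, with a log2 fold change of -0.36 (adjusted p = 0.173), and Pax6 at 0.510 and 1.27 CPM overlapped WT.

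Marker sums also differed in KO26, where 3 of the 12 lists summed higher and 2 lower than in every WT library. Among all single genes tested, 11.9% lay above and 12.8% below WT in both KO26 libraries. Endothelial markers summed to 56.3 to 73.8 CPM in KO26 against 152.9 to 236.2 CPM in WT, and ciliary body and iris epithelium markers to 341.3 to 361.4 against 391.1 to 423.9 CPM. Fibroblast markers were higher, at 19905 to 21857 against 12890 to 17525 CPM, as were 8 listed photoreceptor markers at 53.2 to 67.1 against 41.7 to 52.7 CPM and the immune markers at 9.37 to 10.1 against 7.61 to 9.33 CPM. The rod-specific Gnat1, Nrl, Nr2e3 and Crx were not listed. The part of these marker differences in the values of Lhx2 and the other factors was not tested.

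Tested directly, the clones differed in 4 of the 7 factors. Pax2, Vax2 and Lhx2 were lower in KO22 than in KO26 and Sox9 was higher, where 10.7% of all genes were lower and 7.56% higher by the same test. Log2 fold changes of KO22 against KO26 were -3.70 for Pax2 (SE 0.48, adjusted p = 2.54e-04), -3.23 for Lhx2 (SE 0.54, adjusted p = 0.00115), -2.48 for Vax2 (SE 0.69, adjusted p = 0.0182) and 2.10 for Sox9 (SE 0.22, adjusted p = 6.72e-05). In 4 of the 7, Tbx2 included, every KO22 library lay below every KO26 library, as for 24.6% of all genes, and for Sox9 every KO22 library lay above, as for 23.4%. Lhx2 lay below WT in KO22 and above WT in KO26. The Vax2 call was lost without KO26 replicate 1 (log2 fold change -1.91, adjusted p = 0.155) and with the KO22 and KO26 libraries alone (-2.76, adjusted p = 0.113). Tbx2, at -2.57, had an adjusted p of 0.0906, and Pax6 and Foxc1 had 95% intervals of -1.69 to 1.01 and -0.23 to 0.38.

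**Figure D3:**
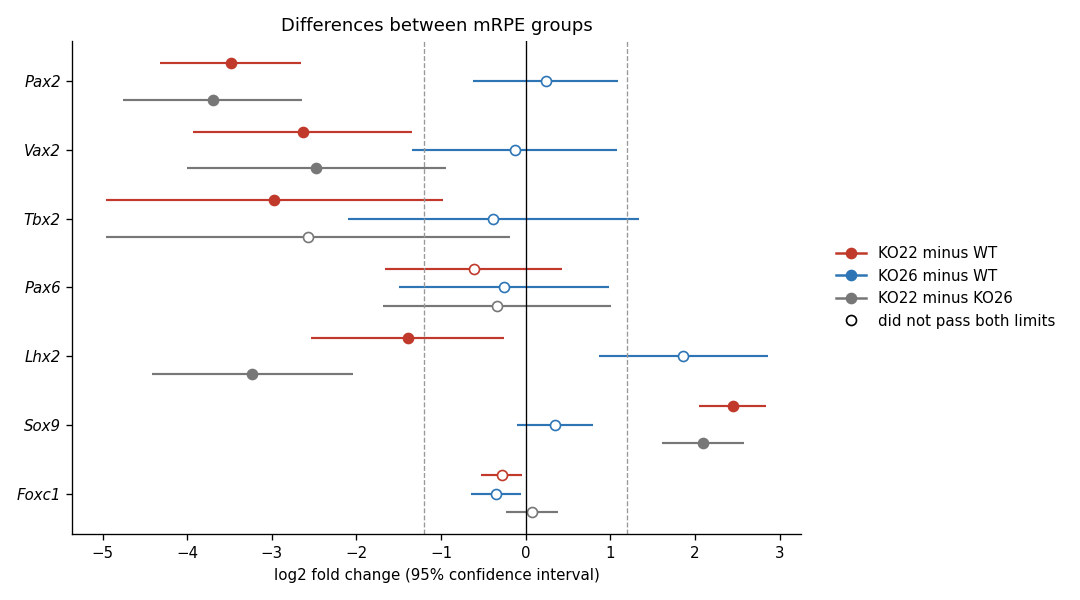
Log2 fold change of the 7 listed factors with 95% confidence intervals for KO22 minus WT, KO26 minus WT and KO22 minus KO26, filled where both limits were passed, with dashed lines at the fold limit of 1.2. The KO26 intervals of Pax2, Vax2, Tbx2, Pax6 and Sox9 hold 0, that of Lhx2 lies above 0 and that of Foxc1 below 0. Those of KO22 lie below 0 for Pax2, Vax2, Tbx2, Lhx2 and Foxc1, lie above 0 for Sox9 and hold 0 for Pax6.

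Likeness between genes was measured as Pearson's r of log2(CPM + 0.5) over the 9 mRPE libraries, among 16372 genes with a mean of at least 1 CPM, as a description. The points share clones and library series. Fbxo44 and Mkrn1 were most like Pax2 (r = 0.993 and 0.992), Il33 and Clcn5 most like Sox9 (0.994 and 0.994), 9930012K11Rik and Zdhhc24 most like Vax2 (0.992 and 0.990), Rtl6 and Gm17206 most like Lhx2 (0.979 and 0.976), and Rab43 and Gm56593 most like Tbx2 (0.962 and 0.915). Among the factors themselves Pax2 was most like Vax2 (0.887) and least like Sox9 (-0.958).

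Other genes of the same programmes were counted in KO22 by the same limits, which 25.2% of all genes tested passed. Of 31 other eye-field and optic-cup factors, 18 were tested, 1 rose and 4 fell, with a median log2 fold change of -0.81. The share called was 27.8%, near that over all genes. Sox11 fell from 46.8 ± 25.0 to 9.27 ± 2.79 CPM (log2 fold change -2.23, adjusted p = 5.47e-04), Eya2 fell to at most 2 counts per library, and Foxd1 and Six5 also fell. Pax5, a paired-box gene better known from B cells, rose from 0.140 ± 0.24 to 4.37 ± 3.64 CPM.

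Of 18 other RPE and pigment-cell factors, 16 were tested, 2 rose and 2 fell, or 25% against 25.2% of all genes tested. Mitf, the pigment-cell master regulator, was at 3.02 to 6.77 CPM in WT and 10.4 to 20.1 CPM in KO22 (log2 fold change 1.41, adjusted p = 0.00550), and the retinoic acid receptor Rarb rose by 1.96 on the log2 scale. Otx1, the paralogue of Otx2, fell from 3.81 ± 1.00 to 0.461 ± 0.46 CPM (log2 fold change -2.91, adjusted p = 0.00124), and the Wnt effector Tcf7l2 fell from 89.2 ± 4.1 to 18.7 ± 3.5 CPM.

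The dorsal and ventral lists did not move one way. In these short lists 42.9% of dorsal and 75% of ventral genes tested were called, against 25.2% of all genes. Of 7 dorsal genes, Bmpr1b rose, and Bmp4, the dorsal ligand upstream of Tbx5, fell from 38.3 ± 16.0 to 3.31 ± 0.87 CPM (log2 fold change -3.47, adjusted p = 6.71e-06). Aldh1a1, the dorsal retinaldehyde dehydrogenase, fell from 578.4 ± 169.8 to 4.94 ± 2.7 CPM (log2 fold change -6.84, adjusted p = 2.69e-07). Of 8 ventral and optic stalk genes tested, Ntn1, Ephb2 and Cyp1b1 rose and Bmper, Chrd and Aldh1a3 fell, and Bmper, a BMP-binding regulator, had a log2 fold change of -3.00 (adjusted p = 1.39e-05).

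Of 12 periocular mesenchyme factors tested, which share the territory of Foxc1, Six2 rose and Tfap2a, Tfap2b, Lmx1b and Foxd1 fell. The share called was 41.7%, against 25.2% of all genes tested. Lmx1b fell from 7.91 ± 0.51 to 0.908 ± 0.85 CPM (adjusted p = 5.90e-04) and Tfap2b from 84.0 ± 12.7 to 12.7 ± 5.5 CPM (adjusted p = 5.05e-05). Foxd1 is also in the list of other eye-field factors.

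Genes known to be controlled by SOX9 in cartilage did not follow Sox9 as a group. Of 8 tested, Acan rose and Col11a1, Col11a2 and Sox5 fell, or 50% against 25.2% of all genes tested. Acan, the cartilage proteoglycan aggrecan, had at most 1 count in a WT library and 16.2 to 29.2 CPM in KO22 (adjusted p = 3.20e-07). It met the count filter through the KO22 libraries alone, the group where it was high, so its p-value is not independent of that filter. Col11a1, a cartilage collagen chain, fell from 407.4 ± 150.5 to 28.7 ± 3.8 CPM (log2 fold change -3.80, adjusted p = 2.54e-06). Of 19 RPE genes with published binding or control by OTX2, MITF, SOX9 or LHX2, 8 were listed and tested in mRPE, Vegfa rose (log2 fold change 1.45, adjusted p = 0.0165) and Dkk3 fell (-1.65, adjusted p = 1.68e-05). These calls were 25% of the genes tested in that list, near the share over all genes.

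Some of these calls were lost when a library was left out. Without WT replicate 1 or KO22 replicate 1, Mitf, Vegfa, Cyp1b1 and Six5 missed the fold limit, with log2 fold changes down to 0.86, 0.76, 1.04 and -0.86. Sox5 missed it without KO22 replicate 1 (-1.19), Bmpr1b was lost without WT replicate 4 or KO22 replicate 2, and Six2 was called in 2 of the 7 fits. Acan, near 0 in WT, did not pass the count filter in the 3 fits that left out a KO22 library.

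**Figure D4:**
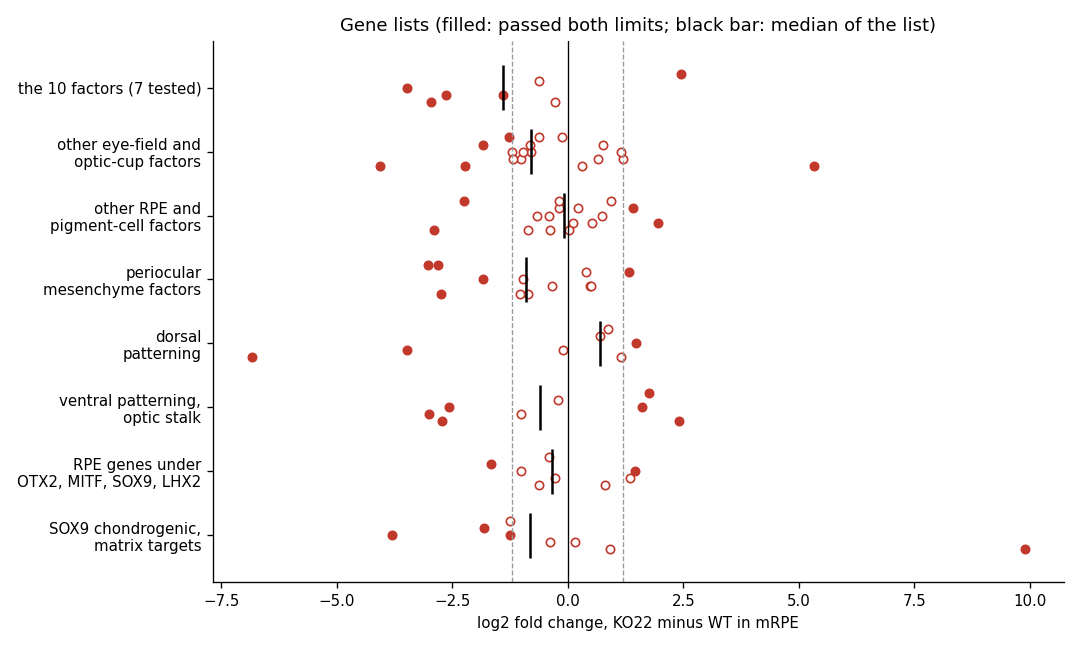
Log2 fold change of KO22 minus WT in mRPE for each tested gene of 8 lists, filled where both limits were passed, with a black bar at the median of the list and dashed lines at 1.2. Every list has calls in both directions, with medians from -1.40 for the 10 factors (7 tested) to 0.71 for dorsal patterning genes, and Aldh1a1 at -6.84 and Acan at 9.90 are the extremes. Acan met the count filter through KO22 libraries alone.

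In RPE/choroid, none of the 10 factors was called between labelled Prom1-KO and WT. edgeR's quasi-likelihood test called 0 genes higher and 47 lower, 0.189% of 24926 tested. At an unadjusted p under 0.05, 0 of the 10 and 2068 of all genes differed, and DESeq2's test called 83 genes higher and 188 lower but none of the 10. The median log2 fold change of the 10 was 0.17, against 0.01 over all genes. Every one of the 10 overlapped between the groups, whereas 6.71% of all genes lay above and 7.89% below WT in all labelled Prom1-KO libraries. In bulk tissue, fewer cells of a type and less RNA per cell cannot be told apart.

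Otx2 measured 52.6, 27.9 and 42.3 CPM in WT and 33.3, 26.6 and 17.4 CPM in labelled Prom1-KO. Its log2 fold change of -0.67 was the most negative of the 10, with a 95% interval of -1.36 to 0.03 (adjusted p = 0.626), and was -0.46 without labelled Prom1-KO replicate 3. The antisense Otx2os1 averaged 12.3 ± 2.0 CPM in WT and 8.35 ± 2.49 CPM in labelled Prom1-KO.

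Pax6 measured 94.2, 52.5 and 51.1 CPM in WT and 97.5, 101.0 and 81.8 CPM in labelled Prom1-KO. WT replicate 1 lay among the labelled Prom1-KO libraries and the other 2 WT libraries lay below them. The log2 fold change was 0.50 with a 95% interval of -0.09 to 1.10 (adjusted p = 0.680).

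Six3, a homeodomain repressor that is kept in retinal neurons of the adult, measured 28.1, 24.8 and 36.7 CPM in WT and 33.0, 22.7 and 13.1 CPM in labelled Prom1-KO (log2 fold change -0.38, 95% interval -1.13 to 0.38). Lhx2 measured 10.2, 2.03 and 5.84 CPM in WT and 10.9, 10.1 and 2.89 CPM in labelled Prom1-KO, a spread within each group that left an interval of -1.07 to 1.89.

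Sox9, which rose in KO22, measured 19.3, 16.2 and 17.2 CPM in WT and 13.6, 17.2 and 12.1 CPM in labelled Prom1-KO. Its log2 fold change was -0.29 with a 95% interval of -0.67 to 0.09 (adjusted p = 0.705). A rise of the size seen in KO22 lies outside this interval for the bulk tissue, as the bound nearest to it was 0.09. Cells other than RPE in such tissue also express Sox9, so a rise within RPE alone was not tested.

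Tbx2, the dorsal repressor, was at 4.63 to 6.72 CPM in WT and 3.72 to 7.42 CPM in labelled Prom1-KO, with an interval of -0.57 to 0.71. Tbx5, its dorsal partner, was at 0.169 to 1.99 CPM in WT and 0.398 to 1.98 CPM in labelled Prom1-KO, and Vax2 at 0.101 to 0.714 and 0.114 to 0.796 CPM. Their intervals of -1.88 to 2.42 and -1.92 to 2.49 hold differences of over 1.2 on the log2 scale in either direction. Pax2 had 0, 0 and 14 counts in WT and 1, 34 and 6 counts in labelled Prom1-KO, too few for its log2 fold change of 1.90 to be told from 0 (95% interval -1.40 to 5.21).

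Foxc1 measured 32.2, 41.4 and 33.5 CPM in WT and 23.6, 30.4 and 56.0 CPM in labelled Prom1-KO. The highest and the lowest library were both labelled Prom1-KO, and the log2 fold change was 0.04 in all libraries and -0.42 (adjusted p = 0.535) without replicate 3. Without it, log2 fold changes of the other factors were 0.58 for Pax6, 0.79 for Lhx2, 0.30 for Tbx2, 0.61 for Tbx5, 0.50 for Vax2, -0.20 for Sox9 and -0.11 for Six3, and Pax2 did not pass the count filter. None of the 9 tested was called, with adjusted p from 0.535 to 0.967. That replicate had the lowest Otx2, Six3, Sox9 and Tbx2 values and the highest Foxc1 value of the 6 libraries.

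**Figure D5:**
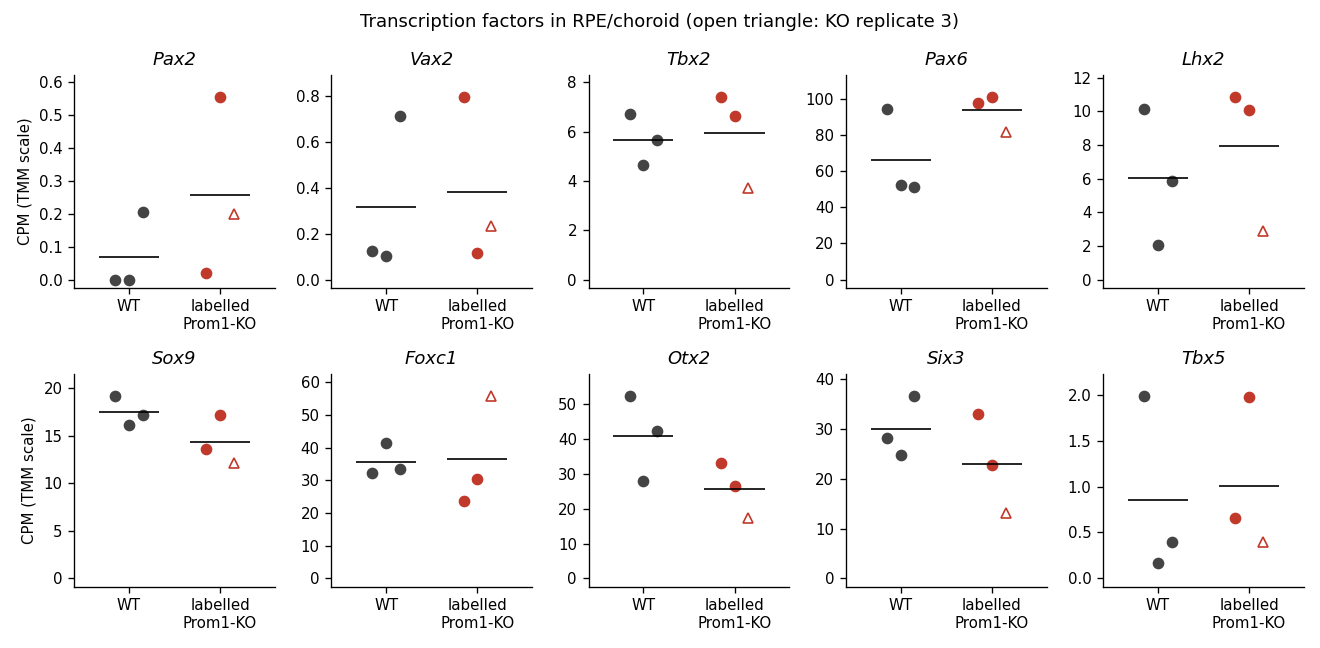
CPM of the 10 factors in each RPE/choroid library, by group, with a line at the group mean and an open triangle for labelled Prom1-KO replicate 3. The groups overlap for every factor, and replicate 3 has the lowest Otx2, at 17.4 CPM, and the highest Foxc1, at 56.0 CPM.

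Genes on which these factors act in RPE were called in the tissue, where 0.189% of all genes tested were called. All 10 RPE markers had negative log2 fold changes, 4 of them called, and summed to 421.7 to 578.8 CPM in labelled Prom1-KO. Of the 19 RPE genes with published binding or control by OTX2, MITF, SOX9 or LHX2, 3 fell and none rose, the visual cycle genes Rpe65, Lrat and Rgr. Rpe65 fell from 256.9 ± 46.2 to 3.86 ± 2.48 CPM (log2 fold change -6.06, adjusted p = 0.0191), Lrat from 145.8 ± 32.2 to 13.6 ± 2.1 CPM (adjusted p = 0.00445) and Rgr from 697.1 ± 131.5 to 18.6 ± 12.0 CPM (adjusted p = 0.0242). Mitf was at 50.3 ± 5.2 CPM in WT and 28.5 ± 1.6 CPM in labelled Prom1-KO (log2 fold change -0.82, adjusted p = 0.0815). Of 12 SOX9 cartilage and matrix targets tested, Col9a3 fell from 29.1 ± 2.2 to 6.89 ± 0.70 CPM (adjusted p = 0.00445) and none rose, and none of the 76 genes tested across the other 5 lists, genes in 2 lists counted in each, was called. The calls of Rpe65 and Rgr were lost in 5 of the 6 fits that left out a library. Without labelled Prom1-KO replicate 3 their log2 fold changes were -6.19 and -5.24 with adjusted p of 0.0942 and 0.113, so that 1 of the 19 genes and 2 of the 10 RPE markers were called, while Lrat (-3.57, adjusted p = 0.0108) and Col9a3 (-2.18, adjusted p = 0.00638) kept their calls in all 6 fits. The lower RPE genes went with the higher share of mitochondrial rRNA in all 3 labelled Prom1-KO libraries, whose part was not tested. RPE65-Cre and tamoxifen are described here for the labelled Prom1-KO mice only, so their effects and those of Prom1 loss cannot be told apart.

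Markers of neural retina, where Pax6, Six3, Otx2, Lhx2 and Sox9 are also expressed, varied between the tissue libraries. The 13 photoreceptor markers summed to 48.2 to 1087 CPM in WT and 28.6 to 528.0 CPM in labelled Prom1-KO, the 7 bipolar cell markers to 102.0 to 182.2 and 131.6 to 266.8 CPM, and the 9 Müller glia and astrocyte markers, which include Pax2, to 685.4 to 1113 and 769.1 to 1278 CPM. None of these 3 lists had a called gene. Without labelled Prom1-KO replicate 3, the bipolar cell markers (231.2 to 266.8 CPM) and the glial markers (1236 to 1278 CPM) lay above all WT libraries.

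Besides the RPE markers, 2 lists lay below WT in every labelled Prom1-KO library, as did 7.89% of all single genes tested. The 8 endothelial markers summed to 100.9 to 200.5 CPM in WT and 78.4 to 90.1 CPM in labelled Prom1-KO, with a negative log2 fold change for each and no call. The 8 ciliary body and iris epithelium markers summed to 91.1 to 143.5 and 54.6 to 80.5 CPM, and 1 of them, the retinol dehydrogenase Rdh10, was called lower (log2 fold change -2.55, adjusted p = 0.00556), a call lost without labelled Prom1-KO replicate 2 (adjusted p = 0.0546). Without replicate 3 both lists still lay below WT, as did skeletal muscle (43.3 to 186.5 against 258.4 to 743.7 CPM) and pericyte and smooth muscle markers (342.5 to 368.8 against 369.5 to 445.2 CPM). The part of these marker differences in the values of the factors was not tested.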

How the data were processed

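RNA-seq libraries of mRPE cells (9) and RPE/choroid (6) were grouped by their sample labels. The authors trimmed reads with Trim Galore 0.6.7, aligned them to mm39 with STAR, and deposited raw counts per gene, made with STAR's GeneCounts mode per the study's methods (a stranded mRNA kit, with the strand setting of the counting not given in the sources used here) together with a normalized signal, which per the deposited values is the count divided by 1 size factor per library. The genes, gene lists and marker lists were chosen with earlier results of these data known. A gene entered a fit when 3 or more libraries held 5 or more counts. The fits used edgeR 4.0.16 in R 4.3.3 (quasi-likelihood, TMM, library series as a term for mRPE), and p-values were adjusted by Benjamini-Hochberg over all genes tested. KO22 was compared with WT over 7 libraries, and KO26 with WT and with KO22 over 9. Confidence intervals (95%) came from the same fits. Alternatives were DESeq2 1.42.0, its size factors, other count filters, no fold limit, no series term, other sets of libraries and each library left out. A fit of RPE/choroid without rRNA genes, and fits that left out each library for the genes of the lists, were chosen after seeing the data. Coordinates of promoter windows are those of RefSeq (GRCm38.p6), and exon lengths and overlapping genes those of GENCODE vM39 (GRCm39), whose release may differ from the authors'. Named genes were the factors, Prom1, at most 8 called genes of each list per comparison, the most alike genes and the nearest tested neighbours. The test was also run on simulated counts. Replicate libraries differed by more than counting noise.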

Additional observations from a re-analysis of the deposited data

Results flagged for a closer look

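Within the 4 WT mRPE libraries, each of the 7 listed factors was checked for a library far from the others, and chance alone flags about 1 group in 20. For Pax2, WT replicate 1 (series 8995) was far below the rest, at 3.93 CPM against 7.20 to 7.82 CPM. For Pax6, WT replicate 4 was far above the rest, at 1.72 CPM against 0.687 to 0.834 CPM. Without WT replicate 1 the Pax2 call in KO22 remained.

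Effects of the 2 clones against WT differed by the direct test of KO22 against KO26 for 4 factors. The difference was -3.70 for Pax2, -3.23 for Lhx2, -2.48 for Vax2 and 2.10 for Sox9 on the log2 scale. Of these, Lhx2 and Pax2 had opposite signs against WT in the 2 clones. Lhx2 was at -1.40 in KO22 (called) and 1.86 in KO26 (not called). Pax2 was at -3.49 in KO22 (called) and 0.23 in KO26 (not called), where its libraries overlapped WT. KO22 and KO26 are 1 clone each, so effects of the clone and of the knockout cannot be told apart.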

How the results depend on the processing

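No paired analysis was possible because the labels give no replicate numbers that pair libraries. With no fold limit, calls over all genes were 5506 higher and 5331 lower in KO22, 490 and 235 in KO26, and 3388 and 3744 for KO22 against KO26. DESeq2's test gave 269 lower genes and 1 higher factor (Lhx2) in KO26, and 83 higher and 188 lower genes in RPE/choroid. Without the series term KO26 had 123 higher and 71 lower genes, and Pax2 and Vax2 there changed sign (-0.034 and 0.0033). WT and KO26 libraries alone gave 408 higher and 410 lower genes and 1 higher factor. KO22 and KO26 libraries alone gave 988 higher and 1348 lower genes. In RPE/choroid filterByExpr and the fit without rRNA genes each gave 1 higher gene. Leaving out each library in turn gave 2 to 3 lower factors in KO22, 68 to 368 higher and 32 to 258 lower genes in KO26, and 0 to 5 higher and 9 to 37 lower genes in RPE/choroid. In KO26 the counts were lowest (68 to 82 higher, 32 to 58 lower) without WT replicate 2, 3 or 4 or KO26 replicate 1. In RPE/choroid the 47 lower genes became 9 without labelled Prom1-KO replicate 2, 14 to 28 without any other library except labelled Prom1-KO replicate 3, and 37 without that one.

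Pax2, Vax2 and Sox9 kept their KO22 calls under all alternatives run. Without a library, log2 fold changes of factors that had not been called changed sign in KO26 for Pax2 (-0.35 to 0.88), Pax6 (-0.98 to 0.32), Vax2 (-0.72 to 0.30) and Tbx2 (-0.67 to 0.055), in KO22 against KO26 for Pax6 (-0.94 to 0.36), and in RPE/choroid for Lhx2 (-0.0033 to 1.02), Vax2 (-0.93 to 1.73), Tbx2 (-0.13 to 0.30), Tbx5 (-0.67 to 1.85) and Foxc1 (-0.42 to 0.26). The cause was not tested. Depth limits Tbx2 and Pax6 in mRPE, at 24 or fewer counts per library, and Pax2 and Vax2 in RPE/choroid, at 49 or fewer.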

Other observations

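Neighbours of the factors were also measured in KO22. Atp6v1b1, a subunit of the vacuolar proton pump 4.67 kb from Vax2 on chromosome 6, fell by 3.53 on the log2 scale (adjusted p = 4.50e-04, edgeR's quasi-likelihood test). 2610027K06Rik, beside Tbx2, fell by 2.11 (adjusted p = 1.22e-04), while Brip1 on the other side of Tbx2 rose by 1.71. Hif1an and Slf2, the nearest tested genes on either side of Pax2, had log2 fold changes of -0.10 and -0.85. Beside Sox9, Kcnj2, 1705 kb away, rose by 1.95 (adjusted p = 1.03e-05), and 2610035D17Rik on the other side was at 0.53 (adjusted p = 0.182). Neighbours of Lhx2 were at -0.69 (Dennd1a) and 0.57 (Nek6), those of Pax6 at -0.16 (Rpl10-ps1) and 0.25 (Immp1l), and those of Foxc1 at 0.39 (Foxf2) and 0.09 (Gmds). The median log2 fold change over all tested genes was -0.42 on chromosome 19 (645 genes), which holds Pax2, -0.45 on chromosome 6 (1081 genes), which holds Vax2, 0.15 on chromosome 2 (1512 genes), which holds Lhx2 and Pax6, and -0.03 on chromosome 11 (1454 genes), which holds Sox9 and Tbx2.

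Between the clones, Mitf measured 10.4 to 20.1 CPM in KO22 and 1.62 to 2.08 CPM in KO26, with WT between at 3.02 to 6.77 CPM, and the direct difference was 2.97 on the log2 scale (adjusted p = 6.38e-04). Eya1, a transcriptional cofactor of the eye field, rose in KO26 against WT by 2.89 (adjusted p = 0.0163; lost in 5 of the 6 fits that left out a library), and Chrdl1, a BMP antagonist, by 1.99 (adjusted p = 0.00421), the only called genes of the 7 lists of other genes in that comparison.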
